A study of Mus musculus with 2 samples.

Results

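The 46 genes described here encode the DNA replication machinery of the mouse: the proteins that mark and license origins, the MCM helicase and its activators, the replicative polymerases with their sliding clamp, and the enzymes that supply deoxynucleotides and finish the new strands. They were chosen by symbol for these roles; the rule used no measured value, but earlier results of these data were known when it was set. All 46 were found among the 43346 annotated genes in the tables of both libraries. The RNA came from healthy B6NCrl hindbrain at embryonic day 10.5, with males and females pooled, and was sequenced as total RNA. The study held 1 group of 2 libraries, each made from 10 ng of RNA with added spike-in RNAs: replicate 1 was a pool of 69 embryos and replicate 2 a pool of 51. No treatment or genotype was compared, and both pools carry 1 shared donor identifier in the labels, so the spread between the libraries may be partly technical.

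DNA is copied once in each cell cycle. Before S phase, the origin recognition complex and the loaders Cdc6 and Cdt1 place the ring-shaped MCM helicase on origins; in S phase Cdc45 and the GINS complex switch the helicase on, and polymerases, clamp and clamp loader gather at the fork. In the embryonic hindbrain, neural progenitors divide beside the ventricle and postmitotic neurons no longer replicate their DNA, so RNA of these genes is a familiar mark of cycling progenitors. Many genes of this machinery are known targets of E2F transcription factors, which act at the entry into S phase.

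The libraries held 38170078 estimated counts in annotated genes in replicate 1 and 36382223 in replicate 2. Of 8 hindbrain markers fixed as a list, 7 were detected, meaning at least 1 TPM (a level per transcript length) in both libraries. Hoxa2 had 47.12 TPM in replicate 1 and 27.33 in replicate 2, while Egr2 had 0.45 TPM in replicate 1 and 1.72 in replicate 2. The spike-in share of TPM was 13.0% in replicate 1, against 7.82% in replicate 2, and this alone shifts every log2 TPM ratio of replicate 1 over replicate 2 by -0.08.

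Promoter sequence was available for 37 of the 46 genes, as RefSeq windows on GRCm38.p6 that run from 250 bases before to 50 bases after a start. The other 9 genes, whose windows were not used here, were Gins4, Tipin, Prim2, Mcm4, Gins2, Gins1, Pole, Rfc2 and Gmnn. Positions are those of the leftmost base of a match, counted from the start without a position 0. Both strands were searched for the E2F motif, spelled as TTTCCCGC, TTTGGCGC, TTTCGCGC or TTTGCCGC, with overlapping matches counted separately. The motif stood in the windows of 15 of the 37 genes (40.5%), against 3.29% of 17491 protein-coding genes with a window. The 15 genes covered most roles: Mcm3, Mcm5, Mcm6 and Mcm7 of the helicase, Orc1 and Orc3 of the origin recognition complex, the loaders Cdc6 and Cdt1, and Gins3, Rfc3, Pola1, Pold1, Pold3, Pole2 and Lig1. The CCAAT box, a site known for the factor NF-Y, stood in 62.2% of the 37 genes, against 42.3% of protein-coding genes. The letters TTTGAA, the core of the CHR element known from mitotic genes, stood in 13.5% of the 37 genes, against 18.5% of protein-coding genes. The shares of protein-coding genes cover genes of any level, and no background matched to the level of the replication genes was computed for the motifs. A match describes the letters and does not show that a factor binds there.

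The windows of 6 genes are printed 5′ to 3′ on the strand of the gene, with E2F matches in capitals. Mcm3 (chr1:20820263-20820562, - strand), Mcm5 (chr8:75109259-75109558, + strand) and Mcm6 (chr1:128359656-128359955, - strand) show windows with 2, 2 and 3 matches. Orc1 (chr4:108579204-108579503, + strand) and Cdc6 (chr11:98907901-98908200, + strand) show windows with 1 match each. Rrm2 (chr12:24708004-24708303, + strand) is the gene of highest level and has no match to these letters in its window.

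Mcm3: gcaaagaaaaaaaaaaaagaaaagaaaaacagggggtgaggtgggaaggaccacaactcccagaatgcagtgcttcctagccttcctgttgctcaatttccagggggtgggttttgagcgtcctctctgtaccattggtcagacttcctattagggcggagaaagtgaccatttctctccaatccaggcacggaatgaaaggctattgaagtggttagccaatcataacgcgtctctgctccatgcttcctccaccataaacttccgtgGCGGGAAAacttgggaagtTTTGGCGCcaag

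Mcm5: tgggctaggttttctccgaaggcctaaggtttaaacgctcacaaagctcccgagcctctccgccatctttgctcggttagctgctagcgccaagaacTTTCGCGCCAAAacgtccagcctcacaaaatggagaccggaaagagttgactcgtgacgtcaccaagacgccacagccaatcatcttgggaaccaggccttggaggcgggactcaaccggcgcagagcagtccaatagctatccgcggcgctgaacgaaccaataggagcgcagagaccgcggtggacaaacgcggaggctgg

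Mcm6: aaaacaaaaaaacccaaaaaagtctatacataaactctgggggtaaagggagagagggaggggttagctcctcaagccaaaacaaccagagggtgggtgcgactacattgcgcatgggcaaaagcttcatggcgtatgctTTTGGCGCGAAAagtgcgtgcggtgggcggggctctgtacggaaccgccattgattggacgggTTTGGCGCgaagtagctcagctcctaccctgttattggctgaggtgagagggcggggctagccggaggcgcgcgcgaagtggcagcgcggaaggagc

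Orc1: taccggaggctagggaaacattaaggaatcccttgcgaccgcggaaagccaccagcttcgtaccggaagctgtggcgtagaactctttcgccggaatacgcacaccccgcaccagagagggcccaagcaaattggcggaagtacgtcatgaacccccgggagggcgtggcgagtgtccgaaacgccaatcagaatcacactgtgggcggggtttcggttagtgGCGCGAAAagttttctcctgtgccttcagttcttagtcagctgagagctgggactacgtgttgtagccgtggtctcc

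Cdc6: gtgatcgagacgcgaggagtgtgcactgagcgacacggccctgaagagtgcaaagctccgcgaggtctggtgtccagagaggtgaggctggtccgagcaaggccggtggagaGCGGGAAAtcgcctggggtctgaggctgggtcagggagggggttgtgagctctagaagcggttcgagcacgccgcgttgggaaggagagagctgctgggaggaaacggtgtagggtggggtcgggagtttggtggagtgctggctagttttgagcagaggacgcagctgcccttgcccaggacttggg

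Rrm2: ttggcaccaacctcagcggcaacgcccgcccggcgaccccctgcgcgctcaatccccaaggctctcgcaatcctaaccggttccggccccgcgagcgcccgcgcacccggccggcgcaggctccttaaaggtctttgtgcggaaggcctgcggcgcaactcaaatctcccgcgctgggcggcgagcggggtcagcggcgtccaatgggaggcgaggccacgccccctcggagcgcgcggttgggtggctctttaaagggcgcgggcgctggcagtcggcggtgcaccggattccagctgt

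In Mcm5 the forward match at position -153 and the reverse match at -149 overlapped by 4 bases, so that they form 1 run of capitals, and in Mcm6 the same arrangement lay at -110 and -106. Mcm3 held its matches after the start, at positions 20 and 39, and Orc1 held its match at -27, beside CCAAT boxes at -120 and -66. Of the 21 matches in all windows of the genes, 14 lay within 50 bases of a RefSeq start, as the plot of match positions shows. Both an E2F match and a CCAAT box stood in 8 of the 15 genes with an E2F match, where 23 of all 37 genes had a CCAAT box. No share over protein-coding genes is given here for both motifs together or for the positions of matches.

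**Figure D1:**
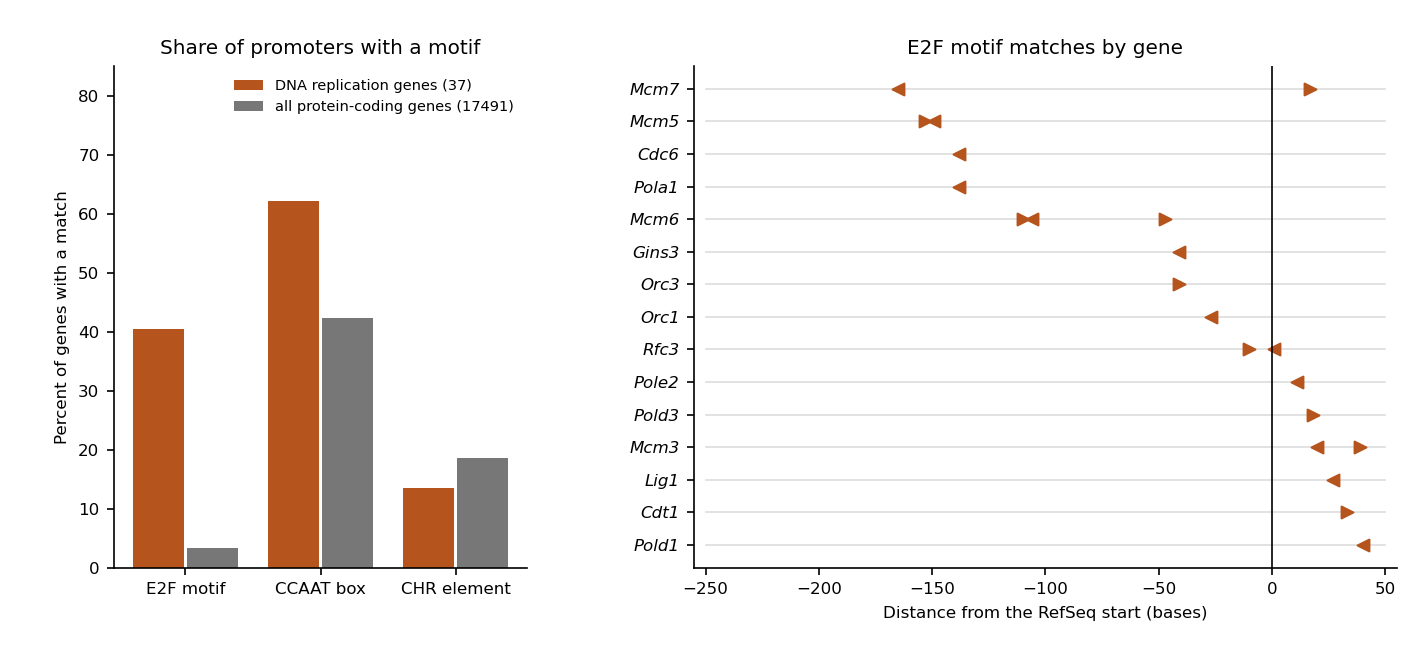
Left, percent of genes whose promoter window holds each motif, for 37 DNA replication genes and for 17491 protein-coding genes; right, positions of the 21 E2F matches relative to the RefSeq start in bases, 1 row per gene, with the triangle pointing along the strand of the match. The E2F bar stands at 40.5% for the replication genes beside 3.29% for protein-coding genes.

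All 46 genes were detected in both libraries, where 58.8% of 21474 protein-coding genes were. Their median level was 90.19 TPM in replicate 1 and 117.9 in replicate 2, and each of the 46 had a mean level above at least 66.39% of protein-coding genes. Summed, they held 4764.0 TPM in replicate 1 and 6197.3 in replicate 2, which is 0.548% and 0.672% of all gene TPM in replicates 1 and 2. The highest gene, Rrm2, stood 33.7-fold above the lowest, Orc1, on the mean TPM of both libraries. The order of the genes by level was close to the same in both pools (Spearman's rho of 0.987 across 46 genes measured in the same libraries).

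The MCM helicase unwinds the parental strands, and its 6 subunits sit in the ring in equal number. Mcm7 had 259.50 TPM in replicate 1 and 305.39 in replicate 2, and Mcm6 had 213.13 TPM in replicate 1 and 295.30 in replicate 2. At the other end, Mcm4 had 115.56 TPM in replicate 1 and 153.86 in replicate 2. The order of the 6 subunits was the same in both pools, with Mcm2, Mcm3 and Mcm5 between these ends at 147.30 to 242.00 TPM across both pools. In protein-coding transcripts alone, Mcm3 had 107.14 TPM in replicate 1, below Mcm4, and 166.22 in replicate 2, above Mcm4. The highest level exceeded the lowest 2.1-fold ± 0.184 (SD, n = 2). Here and below, such a fold is of the mean TPM over both libraries, and its SD is over the folds of the single libraries. The 6 subunits together held 1062 TPM in replicate 1 and 1418 in replicate 2, the largest sum of the 12 roles.

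The origin recognition complex, the platform on which the helicase is loaded, was far less even. Orc4 had 83.04 TPM in replicate 1 and 95.46 in replicate 2. Orc1, an ATPase subunit whose amount is known to vary over the cell cycle, had 11.49 TPM in replicate 1 and 18.75 in replicate 2. Orc4 thus exceeded Orc1 5.9-fold ± 1.51 (SD, n = 2), and the fold was 7.23 in replicate 1 and 5.09 in replicate 2. In protein-coding transcripts alone, a choice made after the data were seen, Orc4 exceeded Orc1 2.34-fold in replicate 1 and 1.59-fold in replicate 2, and Orc6 over Orc1 was the widest fold, at 6.1. Orc6 and Orc3 stood close to Orc4, at 65.72 to 91.42 TPM across both pools, while Orc5 and Orc2 lay between 28.44 and 43.53 TPM. Orc4 is also a gene for which most TPM lay outside its protein-coding transcripts, as described below.

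Among the licensing genes, the inhibitor exceeded the loaders. Gmnn, which encodes geminin, the protein that holds Cdt1 back after S phase has begun, had 106.89 TPM in replicate 1 and 155.67 in replicate 2. Cdt1 had 43.63 TPM in replicate 1 and 52.49 in replicate 2. Cdc6 had 36.16 TPM in replicate 1 and 53.62 in replicate 2. Gmnn lay above both loaders in both pools, while the order of Cdt1 and Cdc6 was reversed between the pools.

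Cdc45 and the 4 GINS subunits join the MCM ring to form the working helicase, and Mcm10 helps it to start. Gins2 had the highest level of these 6 genes, with 109.35 TPM in replicate 1 and 137.95 in replicate 2. Gins3 had the lowest, with 18.43 TPM in replicate 1 and 21.99 in replicate 2. The fold between these subunits of a complex of equal parts was 6.12 ± 0.24 (SD, n = 2). Counting protein-coding transcripts only, Gins2 exceeded Gins3 1.35-fold in replicate 1 and 1.17-fold in replicate 2. The widest fold among the 6 genes was then 4.5, of Gins4 over Gins3. Cdc45, Gins1 and Mcm10 lay between 36.84 and 60.95 TPM across both pools, and Gins4 had 85.19 TPM in replicate 1 and 96.51 in replicate 2.

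The clamp Pcna, which ties the polymerases to DNA, had 248.15 TPM in replicate 1 and 337.06 in replicate 2. Its loader has a large subunit, Rfc1, and 4 small ones. Rfc1 had 44.51 TPM in replicate 1 and 72.51 in replicate 2. Every small subunit lay above Rfc1 in both pools, from Rfc5, with 87.34 TPM in replicate 1 and 113.76 in replicate 2, to Rfc2, with 178.90 TPM in replicate 1 and 203.51 in replicate 2.

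The catalytic subunits of the polymerases did not share a level. Pola1, which extends the primers of polymerase alpha, had 11.78 TPM in replicate 1 and 18.55 in replicate 2, close to Orc1 at the foot of the list. Pole, which copies the leading strand, had 26.35 TPM in replicate 1 and 37.02 in replicate 2. Pold1, which copies the lagging strand, had 113.40 TPM in replicate 1 and 149.37 in replicate 2. Pold1 therefore stood above Pole and Pola1 in both pools. In polymerase alpha-primase the catalytic primase subunit Prim1 had the highest level, 5.18-fold ± 0.477 (SD, n = 2) above Pola1, with Pola2 and Prim2 between them. Pold2 and Pold3, accessory subunits of polymerase delta, lay between 56.89 and 128.77 TPM, and Pole2, the accessory subunit of polymerase epsilon, had 18.52 TPM in replicate 1 and 26.29 in replicate 2.

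The 3 subunits of replication protein A, which coats single-stranded DNA, lay close together. Rpa3 had 139.81 TPM in replicate 1 and 156.19 in replicate 2, and Rpa1 had 108.68 TPM in replicate 1 and 149.61 in replicate 2. The fold between them was 1.15 ± 0.171 (SD, n = 2), so the spread between the pools was as wide as the difference. In protein-coding transcripts alone the same fold was 1.85 in replicate 1 and 1.52 in replicate 2. Of the enzymes that finish Okazaki fragments, Fen1, the nuclease that trims flaps, had 108.04 TPM in replicate 1 and 152.94 in replicate 2. Lig1, the ligase that seals nicks, had 93.04 TPM in replicate 1 and 128.61 in replicate 2. Of the partners that protect stalled forks, Tipin had 168.31 TPM in replicate 1 and 197.77 in replicate 2. It exceeded Timeless 2.88-fold ± 0.406 (SD, n = 2).

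Nucleotide supply held the highest single gene. Rrm2, the small subunit of ribonucleotide reductase, had 441.49 TPM in replicate 1 and 578.46 in replicate 2. Rrm1, its large subunit, had 150.65 TPM in replicate 1 and 188.22 in replicate 2. Rrm2 exceeded Rrm1, its partner in the enzyme, 3.01-fold ± 0.101 (SD, n = 2). Tyms, which makes thymidylate, had 179.38 TPM in replicate 1 and 228.39 in replicate 2. Counting protein-coding transcripts only, Tyms became the lowest of these 3 genes and the widest fold was 23.5. The protein-coding transcript held 25.77% of Tyms counts in replicate 1 and 25.52% in replicate 2. The fold therefore depends on how reads were divided among the Tyms transcripts. The plot of levels by gene shows these values with the others.

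**Figure D2:**
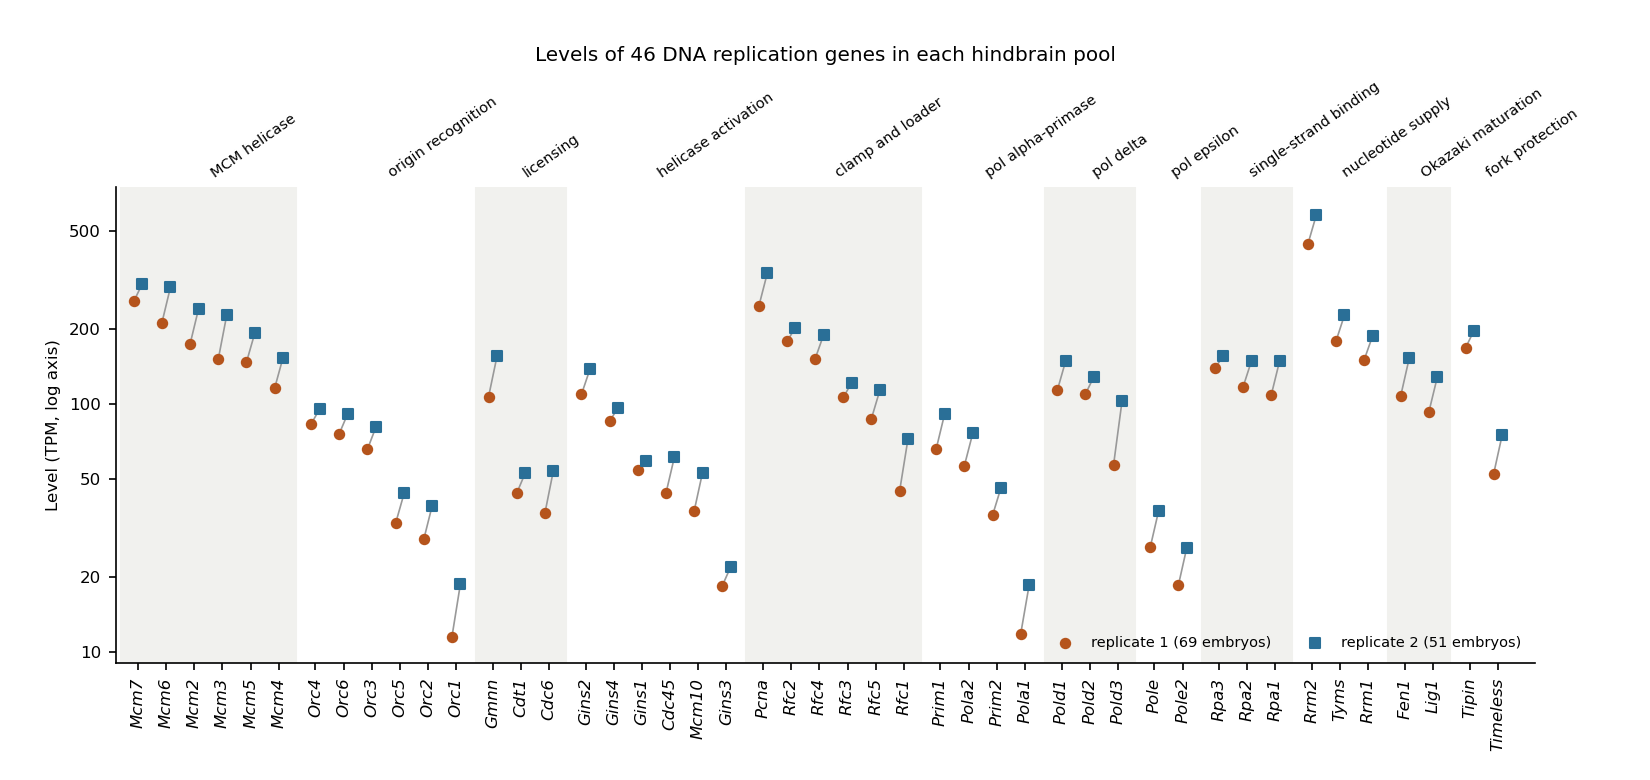
Level of each of the 46 genes in TPM on a log axis, ordered by role and by level within a role; circles are replicate 1 (69 embryos) and squares replicate 2 (51 embryos), joined by a line for each gene. Rrm2 stands highest, with 441.49 TPM in replicate 1 and 578.46 in replicate 2, and the square lies above the circle for all 46 genes.

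Every one of the 46 genes had a lower level in replicate 1 than in replicate 2. To set aside library size and spike-ins, the ratio of replicate 1 over replicate 2 was taken from counts scaled by TMM, which assumes that most genes are alike. By this measure 46 of 46 genes were below 0 on the log2 scale, where 49.9% of the 14385 genes tested were, with a median of -0.32 (quartiles -0.42 and -0.19) beside 0.0 for all genes tested. Of the 46, 23 were at least 20% lower in replicate 1, against 14.2% of all genes tested, and 0 were at least 25% higher in replicate 1, against 18.3%. Among 6992 protein-coding nuclear genes within the same range of mean TPM, 52.6% were below 0, 11.0% were at least 20% lower and 10.7% at least 25% higher in replicate 1, and the median was -0.01. With 1 library on each side the ratio has no replicate check and compares these libraries only, so no test was run. With spike-in counts as the scale, the median of all genes tested moved to -0.82 and that of the 46 genes to -1.14, so the ratios here are relative to the typical gene. In bulk tissue, fewer cells of a type and less RNA per cell cannot be told apart.

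The ratios lay within a narrow band. The lowest was Orc1 at -0.61 (95% counting interval -0.74 to -0.48), from 844 counts in replicate 1 and 1220 in replicate 2. Orc1 was the only 1 of the 46 at least 1.5-fold lower in replicate 1, against 4.03% of all genes tested. Pola1 and Rfc1 followed at -0.58 each, then Pold3 at -0.57, Mcm3 at -0.54, Mcm10 at -0.53 and Cdc6 at -0.50. These 7 genes belong to 7 different roles. The ratios nearest to 0 were those of Gins1 at -0.02 (interval -0.13 to 0.09), Rpa3 at -0.08 (interval -0.17 to 0.01), Gins2 and Gins4 at -0.10 each, and Rfc2 at -0.11. The counting interval, which covers counting error only, lay wholly below 0 for 44 of the 46, all except Gins1 and Rpa3. The same share over all genes tested is not given here, so this count has no background.

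Subunits of 1 complex differed in this ratio too. The MCM subunits ran from -0.54 for Mcm3 to -0.19 for Mcm7, whose 16370 counts in replicate 1 and 17718 in replicate 2 gave an interval of -0.22 to -0.16. The clamp loader ran from -0.58 for the large subunit Rfc1 to -0.11 for the small subunit Rfc2. By role, the median was closest to 0 for helicase activation, at -0.14, where Gins1, Gins2, Gins3 and Gins4 lay between -0.18 and -0.02 while Cdc45 stood at -0.44 and Mcm10 at -0.53. It was farthest from 0 for licensing, at -0.47, with Gmnn at -0.47 beside Cdc6 at -0.50 and Cdt1 at -0.19. Both genes of Okazaki fragment maturation, Fen1 at -0.42 and Lig1 at -0.44, were at least 20% lower in replicate 1.

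Across the 46 genes the ratio had a Spearman's rho of -0.32 with the length of the longest transcript, where the value was -0.05 over all genes tested; with GC content it was -0.05, where all genes tested had 0.29. These points share the same libraries and lengths, and the values are descriptions. After the trends of the ratio on GC content, length and level over all genes were removed, a step added once the data had been seen, 43 of the 46 remained below 0 with a median of -0.28. Gins1 then stood at 0.05, Rpa3 at 0.13 and Tipin at 0.01.

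**Figure D3:**
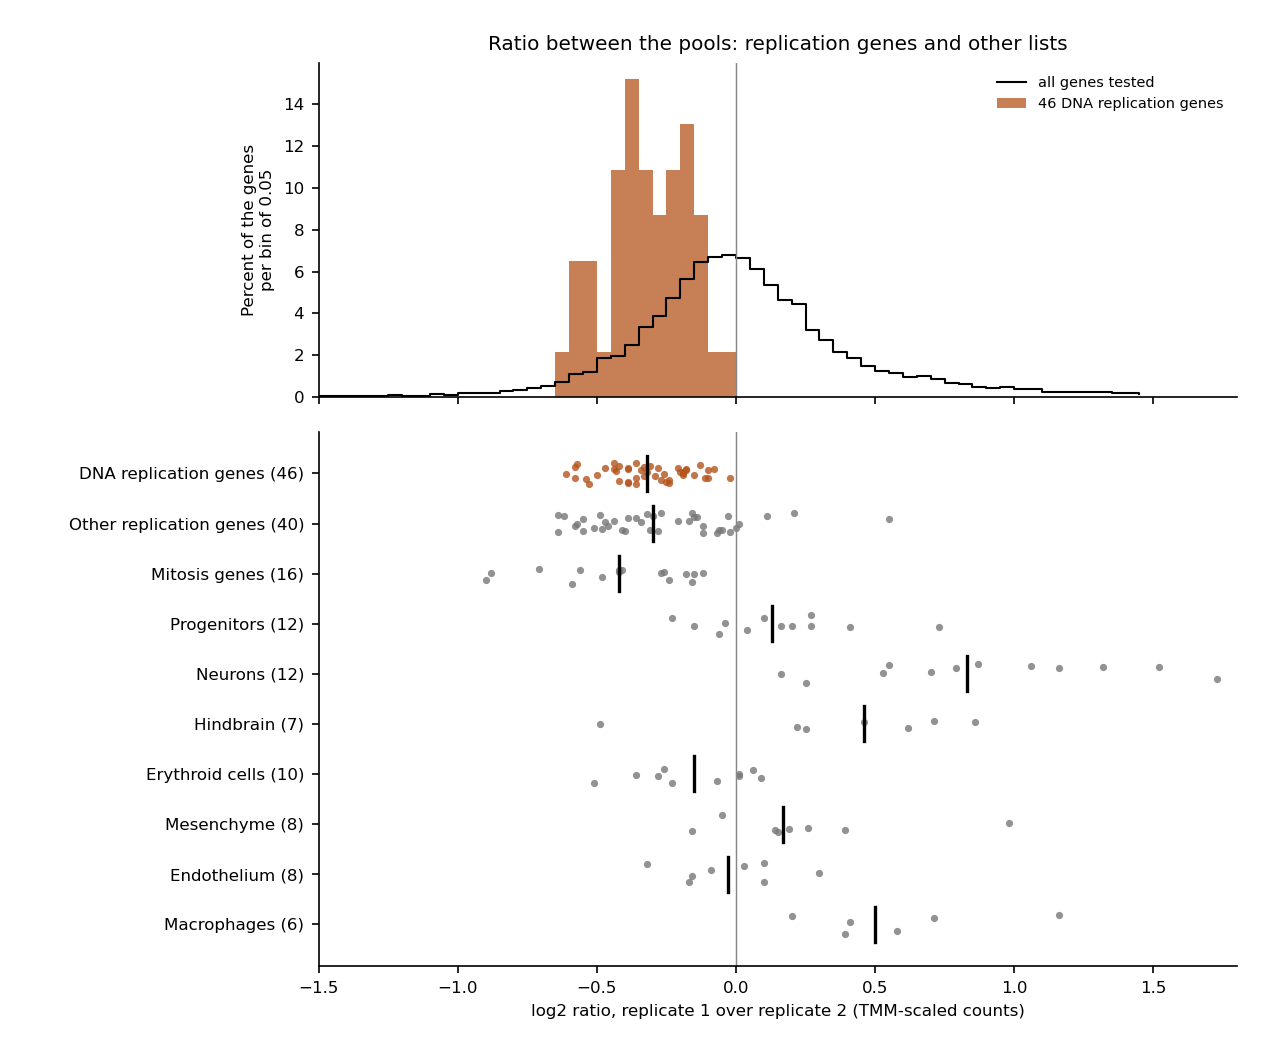
Log2 ratio of replicate 1 over replicate 2 from TMM-scaled counts. Top, percent of genes in bins of 0.05 for the 46 replication genes (bars) and for all genes tested (line); bottom, each dot is a gene of the named list, with the number of its genes in brackets, and the black bar is the median of the list. The 46 replication genes all lie left of 0, at a median of -0.32, as do the 16 mitosis genes at -0.42, while the 12 neuron genes lie right of 0 at 0.83; with spike-in scaling the neuron median was 0.01.

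Of 40 further replication genes outside the 46, 35 were below 0, 18 were at least 20% lower in replicate 1 and 1 at least 25% higher, with a median of -0.30. The lowest of them were Cdc7, the kinase that fires origins, at -0.64, with 29.58 TPM in replicate 1 and 48.90 in replicate 2, and the fork factor Wdhd1, also at -0.64. Uhrf1, which carries DNA methylation over to the new strand, stood at -0.62, with 157.06 TPM in replicate 1 and 253.41 in replicate 2. The 1 higher gene was Chtf8, a subunit of an alternative clamp loader, at 0.55, with 141.70 TPM in replicate 1 and 101.92 in replicate 2. Mcm9, a helicase known from recombination, had the lowest level of the 40, with 3.53 TPM in replicate 1 and 3.69 in replicate 2, and Slbp, which binds histone RNA, had the highest, with 208.88 TPM in replicate 1 and 274.94 in replicate 2. Of 16 mitosis genes, 16 were below 0 and 9 at least 20% lower in replicate 1, with a median of -0.42. The centromere motor gene Cenpe stood at -0.90 and its partner Cenpf at -0.88, followed by the proliferation marker Mki67 at -0.71. All of these lay farther from 0 than any of the 46, while the checkpoint kinase gene Bub1, at -0.59, lay within their range.

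Markers of other cells differed between the pools alongside, here too relative to the typical gene. Of 12 neuron genes, 12 were above 0 and 10 at least 25% higher in replicate 1, with a median of 0.83; they summed to 2424.7 TPM in replicate 1 and 1582.9 in replicate 2, and none was at 0. Tubb3, the neuronal tubulin, had 726.87 TPM in replicate 1 and 472.71 in replicate 2. Of 12 progenitor genes, 8 were above 0, 4 below 0 and 2 at least 25% higher in replicate 1, with a median ratio of 0.13. They summed to 2554.7 TPM in replicate 1 and 2164.8 in replicate 2, while their median level was 51.68 TPM in replicate 1 and 57.39 in replicate 2. The progenitor list was thus mixed in direction, where all 46 replication genes were below 0. Ratios of the 10 erythroid genes had a median of -0.15 and a sum of 14460 TPM in replicate 1 and 16356 in replicate 2. Medians were 0.46 for 7 hindbrain genes, 0.17 for 8 mesenchyme genes, -0.03 for 8 endothelium genes and 0.50 for 6 macrophage genes, whose sum was 58.34 TPM in replicate 1 and 38.54 in replicate 2. With spike-in counts as the scale, medians of the marker lists were 0.01 for neurons and below 0 for the others, at -0.69 for progenitors, -0.36 for hindbrain, -0.65 for mesenchyme and -0.32 for macrophages among those that lay above 0 before. The part of these cells in the ratios of the replication genes was not tested.

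Genes with and without the E2F letters printed above had overlapping ratios. The 15 genes with an E2F match had a median of -0.39 and a range of -0.61 to -0.13, and the 22 genes with a window and no match had a median of -0.35 and a range of -0.58 to -0.08. At least 20% lower in replicate 1 were 8 of the 15 and 13 of the 22.

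A gene on the opposite strand began within 1000 bases of 21 of the 46, by GENCODE M21 on mm10. That is 45.7% of them, against 18.6% of 21474 protein-coding genes and 30.2% of the 6992 that lay in the same range of TPM. For 12 of the 21 the neighbour was protein-coding and passed the filter on low counts. The neighbours had a median log2 ratio of -0.09, and 8 of the 12 were below 0, against 49.9% of all genes tested. At least 20% lower in replicate 1 were 0 of the 12, against 14.2% of all genes tested. The replication genes beside them had a median of -0.26. In 11 of the 12 pairs the replication gene had the lower ratio, a count favoured in advance because all 46 lay below 0. Orc1 (chr4:108579423-108614833, + strand) stood at -0.61 and the splicing gene Prpf38a, which begins 87 bases away, at -0.21. Cdc45 (chr16:18780447-18811987, - strand) stood at -0.44 and Ufd1 at 0.0, and Fen1 (chr19:10199132-10204169, - strand) stood at -0.42 and Tmem258 at -0.01. The exception was Mcm7 (chr5:138164583-138172422, - strand) at -0.19, beside Ap4m1 at -0.22. Exons of 17 of the 46 genes overlap exons of another gene, 14 of them on the opposite strand. That is 37% of them, near the 38.5% of protein-coding genes in the same range of TPM. The overlap runs over 2758 bases in Gins2 with Gse1, 1909 in Fen1 with the antisense gene Gm10143 and 1150 in Orc2 with Nif3l1. The sources used here do not say whether counting used strand, and without it reads of such genes cannot be told apart. The 46 genes lay on 15 chromosomes, with 8 on chromosome 5, which is 17.4% of them where the chromosome holds 5.71% of protein-coding genes, and 6 on chromosome 8.

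Most of the genes made mainly protein-coding RNA as annotated. Of the 46, 10 had 1 transcript in annotation M4, used for the counts, so their protein-coding share was fixed at 100%. The transcript of highest TPM was the same in both libraries for each of the 36 genes with at least 2. Over all 46, these 10 included, protein-coding transcripts held a median of 93.72% of the TPM of a gene, and at least 90% in 26 genes. They held under 75% in 12 genes, counting Rfc1, most of whose TPM lay in transcripts without a class in M21. At least 1% of TPM lay in transcripts that retain an intron in 23 genes. The same shares over all genes are not given here, so these and the transcript counts below have no background. TPM divides counts by length, so short transcripts weigh more in these shares than in counts.

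Gins2 shows this most plainly. Its 511-base transcript with a retained intron held 72.77% of gene TPM in replicate 1 and 73.70% in replicate 2, from 886 counts in replicate 1 and 1015 in replicate 2. The 3900-base protein-coding transcript held 22.72% of gene TPM in replicate 1 and 18.70% in replicate 2, although its 2553 counts in replicate 1 and 2375 in replicate 2 were the larger number. Its own level was 24.84 TPM in replicate 1 and 25.79 in replicate 2. The first place of Gins2 among the helicase activators thus rested on counts assigned to the short transcript. Whether a separate short RNA gave these counts was not tested. The overlap of Gins2 with Gse1 touches these counts as well.

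Tyms had the lowest share of protein-coding RNA, 10.05% of gene TPM in replicate 1 and 10.43% in replicate 2. A 797-base transcript annotated for nonsense-mediated decay held 43.22% in replicate 1 and 41.99% in replicate 2, and an 816-base transcript with a retained intron held 30.09% in replicate 1 and 28.21% in replicate 2. The shares of Tyms transcripts were nearly alike in both pools. In Orc4, protein-coding transcripts held 29.60% of gene TPM in replicate 1 and 28.16% in replicate 2, with the rest in noncoding processed transcripts. Rfc1 was the 1 gene with over 20% of its TPM in M4 transcripts that M21 no longer lists, 85.78% in replicate 1 and 87.68% in replicate 2, so its coding share cannot be given on the same footing.

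The share of the leading transcript differed between the pools by a median of 1.681 percentage points over the 36 genes with at least 2 annotated transcripts, and by at least 5 points in 9 of them. The widest change was in Lig1, whose leading 944-base transcript held 36.87% in replicate 1 and 49.64% in replicate 2. A 3054-base noncoding Lig1 transcript held 0.591% in replicate 1 and 24.12% in replicate 2, but the posterior SD of its count was 90.59% of the count in replicate 1 and 24.50% in replicate 2, so the division of reads among Lig1 transcripts was poorly resolved. In Pold3, a 186-base transcript that M21 no longer lists held 3.57% in replicate 1 and 14.68% in replicate 2, from 5 counts in replicate 1 and 32 in replicate 2. In Cdc45, the 2143-base and 1747-base protein-coding transcripts held 51.95% and 47.52% in replicate 1, and 62.21% and 37.37% in replicate 2. Posterior SDs of those counts were 4.04% to 8.44%. For whole genes the posterior SD of the gene count was at most 0.554% (Fen1), and it was 0 in both libraries for 30 of the 46. With the use of strand in counting not given, these values do not settle reads shared with overlapping genes.

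**Figure D4:**
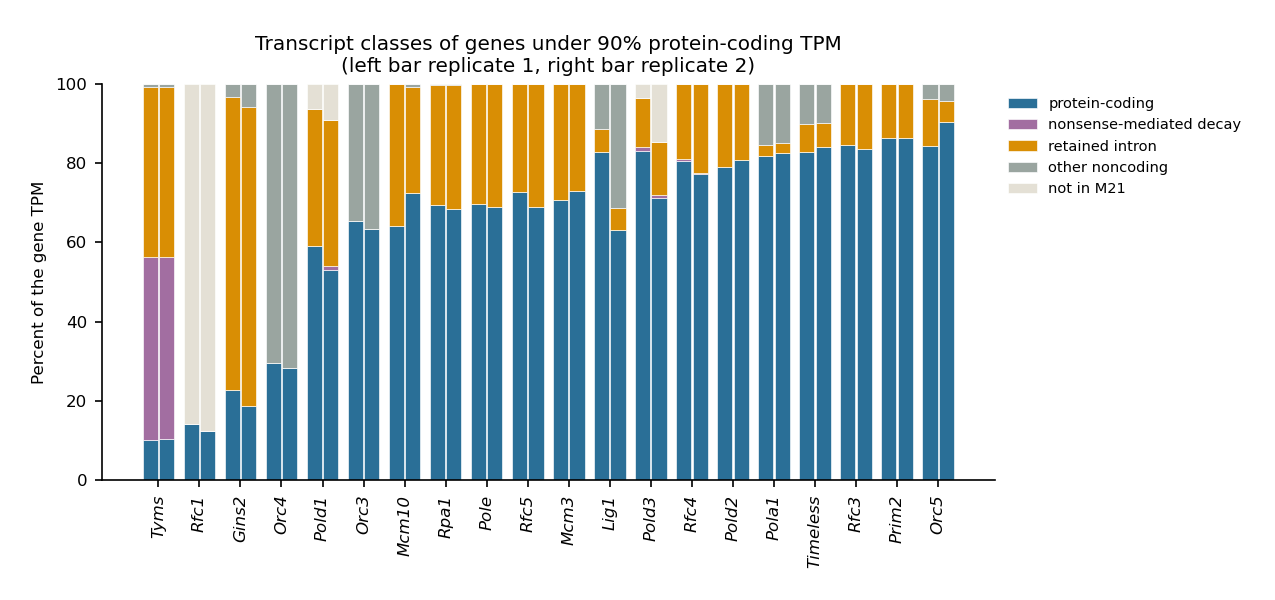
Percent of gene TPM in each annotated class of transcript for the genes under 90% protein-coding TPM; for each gene the left bar is replicate 1 and the right bar replicate 2. Tyms, Gins2 and Orc4 stand apart at the left with under 30% in protein-coding transcripts. Rfc1 stands among them because most of its TPM lay in transcripts not in M21, which have no class here.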

How the data were processed

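Total RNA was sequenced from 2 pools of embryonic hindbrain. Per the submitters' file notes, reads were assigned to assembly mm10 with annotation M4; the sources used here do not give the aligner, the quantification program or the use of strand in counting. Per the file headers, the tables hold an expected count (reads that fit several features are divided), TPM and FPKM; the score column, a posterior standard deviation of the count, and the percent of each isoform are also per the file headers, and percent values here were recomputed from TPM. TPM totals include spike-ins and 26248 predicted tRNA rows.

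Identifiers without version were matched to GENCODE M21 on the same assembly (42462 of 43346 genes). Expected counts were rounded; ratios were log2 of replicate 1 over replicate 2 for genes that reached 1 CPM in each library, with TMM factors of 1.003 and 0.9969 for replicates 1 and 2 and a prior count of 2 (edgeR 4.0.16, R 4.3.3). Intervals are exact binomial at 95% and cover counting error only. With 1 group no test was run. The ratio step was tested on simulated data. Alternatives were scaling by spike-in counts, by total count or by DESeq2 1.42.0 size factors, prior counts of 0.5 and 5, no filter, log2(TPM + 0.1), a fold of 1.5, FPKM, posterior means and each library alone. Trend removal (lowess, statsmodels 0.14.6, span 0.3), coding-only folds and genes of the same TPM range were added after the data were seen. All 46 genes are named, and list genes by their extremes, besides the polymerase subunits Pole3, Pole4 and Pold4. The genes and lists were chosen with earlier results of these data known. Figures were drawn with matplotlib 3.10.9, and exact intervals came from scipy 1.17.1 in Python 3.11.15 (pandas 2.3.3, numpy 2.4.6).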

Additional observations from a re-analysis of the deposited data

How the results depend on the processing

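Under each alternative tried for it, the number of genes detected was 46, the number with an E2F match 15 and the number whose leading transcript exceeds 50% of gene TPM 39. The 39 include the 10 genes with 1 transcript in M4, whose share is 100% by annotation. No share over all genes is given beside the 39. The median ratio and the number at least 20% lower were -1.14 and 46 under spike-in scaling, which moves the median of all genes to -0.82. On log2(TPM + 0.1) the median was -0.40 and the number 31. With trends removed the number was 16, and at a fold of 1.5 it was 1. In FPKM the sum was 3578.6, where the mean of the summed TPM was 5480.7. With trends removed, Gins1 was at 0.05, Rpa3 at 0.13 and Tipin at 0.01; the cause was not tested. With protein-coding transcripts only, the fold between highest and lowest gene was 3.13 for licensing. With all transcripts that fold was 2.92, and 2.96 to 2.97 in single libraries, where the order of the loaders changes. The coding-only folds were 4.5 for helicase activation, 5.9 for polymerase alpha-primase and 1.02 between Pole and Pole2, without Pole3 and Pole4. They were 1.66 for single-strand binding, 1.65 for Okazaki maturation and 3.45 for fork protection. For nucleotide supply the fold was 23.5, where Tyms is lowest. For clamp and loader no such fold was computed because of Rfc1. No paired analysis was possible because the study has 1 group and no replicate number is shared between groups. Counts of 799 and more per gene leave a median interval half-width of 0.066 (log2).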
